A study of Mus musculus with 56 samples.

Results

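A4galt and Cklf were described clone by clone in mouse lung after injection of oleic acid (OA). The members were the spots of the nylon membrane that carry either gene symbol, which gave 2 A4galt clones (O:03-J:06 and P:03-J:03, named by their position on the membrane) and 2 Cklf clones (H:03-F:06 and O:02-F:08), that is 4 of 7625 named clones and 2 of 5883 gene symbols. Both genes were selected on their large difference between OA and serum mice in these same microarrays, so that difference is given as a description without a test.

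Lung RNA came from female C57Bl/6J mice aged 7 weeks. All mice were anaesthetized with xylazine and ketamine and received either OA, a fatty acid that injures the lung when it is given into a vein, or physiological serum, the control. The smaller lung of each mouse was taken 1, 1.5, 3, 4, 18 or 24 hours later, and its labelled cDNA was hybridized on 60 microarrays of 9984 spots each. Values were used from 27 OA mice on 50 microarrays (4, 6, 7, 4, 3 and 3 mice in order of time) and from 8 serum mice on 9 microarrays (2 mice at 1 h, 1 at 1.5 h, 2 at 3 h, 2 at 18 h and 1 at 24 h). No serum microarray was labelled 4 h. The model limits the comparison in that each lung holds all its cell types, that no group of untreated mice was used here, and that the serum groups hold 1 or 2 mice. The sources used here do not state whether OA and serum membranes were hybridized together.

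A4galt encodes the galactosyltransferase that adds galactose to lactosylceramide and so makes globotriaosylceramide, the first lipid of the globo-series and the cell surface receptor of Shiga toxin. In tissues this lipid is known from endothelial and epithelial cells. Cklf encodes chemokine-like factor, a small secreted protein that attracts leukocytes and that belongs, with the Cmtm proteins, to a family built around the membrane-spanning MARVEL domain. Its human counterpart has been described as a ligand of the chemokine receptor CCR4, which also binds Ccl17 and Ccl22.

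The genes are not neighbours. In GRCm38.p6, A4galt (gene ID 239559) lies on the minus strand of chromosome 15 from 83226722 to 83251729, and Cklf (gene ID 75458) lies on the plus strand of chromosome 8 from 104250861 to 104266010. Because the 4 clones moved together across mice, the 250 bases before each RefSeq start site are shown, in the direction of transcription, with matches in capitals. The motifs searched were AP-1 (TGACTCA), the GC box (GGGCGG), the CCAAT box (CCAAT) and the TATA box (TATAAA), on both strands and with overlapping matches allowed.
A4galt, chr15:83251730-83251979: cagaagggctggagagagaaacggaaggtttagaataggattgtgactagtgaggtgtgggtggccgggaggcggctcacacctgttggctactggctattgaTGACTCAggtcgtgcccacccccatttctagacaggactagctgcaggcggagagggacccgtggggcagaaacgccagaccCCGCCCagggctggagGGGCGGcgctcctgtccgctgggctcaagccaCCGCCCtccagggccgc
Cklf, chr8:104250611-104250860: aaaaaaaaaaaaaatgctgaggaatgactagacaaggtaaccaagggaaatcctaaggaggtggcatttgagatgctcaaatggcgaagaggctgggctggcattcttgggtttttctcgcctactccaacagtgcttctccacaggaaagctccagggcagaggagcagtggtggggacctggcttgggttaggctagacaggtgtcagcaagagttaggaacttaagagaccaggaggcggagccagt

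The A4galt window held 1 AP-1 match, which begins 147 bases before the start site, and 3 GC box matches, which begin 65, 49 and 17 bases before it. The Cklf window held none of the 4 motifs. Of 32851 windows of the same length, 4.46% held AP-1, 32.7% the GC box, 33.8% the CCAAT box and 12.4% the TATA box. G and C made up 64% of the A4galt window and 50.4% of the Cklf window. No motif searched was found in both windows, and a match shows only that these letters are there.

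All signals below are log2 of the quantile normalized intensity, so that 1 unit is a doubling of signal, and a mouse with 2 microarrays counts once. All 4 clones stood far above serum in OA lungs. In the OA mice the Cklf clone O:02-F:08 ranged from 10.18 to 12.93 with a median of 12.41, against 6.07 to 7.91 with a median of 7.10 in the serum mice. The Cklf clone H:03-F:06 ranged from 11.13 to 13.67 (median 13.11) against 8.07 to 9.16 (median 8.37). The A4galt clone P:03-J:03 ranged from 10.59 to 13.02 (median 12.23) against 8.09 to 8.57 (median 8.32), and the A4galt clone O:03-J:06 from 9.20 to 11.92 (median 11.32) against 7.37 to 8.13 (median 7.80). On each clone the lowest OA mouse was above the highest serum mouse, by 2.27, 1.97, 2.02 and 1.07 in the order given. The groups did not overlap in this direction on 581 of 7625 clones, or 7.62%, and since the members were selected on this contrast nothing is read from their count. In RNA of a lung with all its cells, a change in the number of cells that hold a transcript and a change in its amount per cell cannot be told apart.

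**Figure D1:**
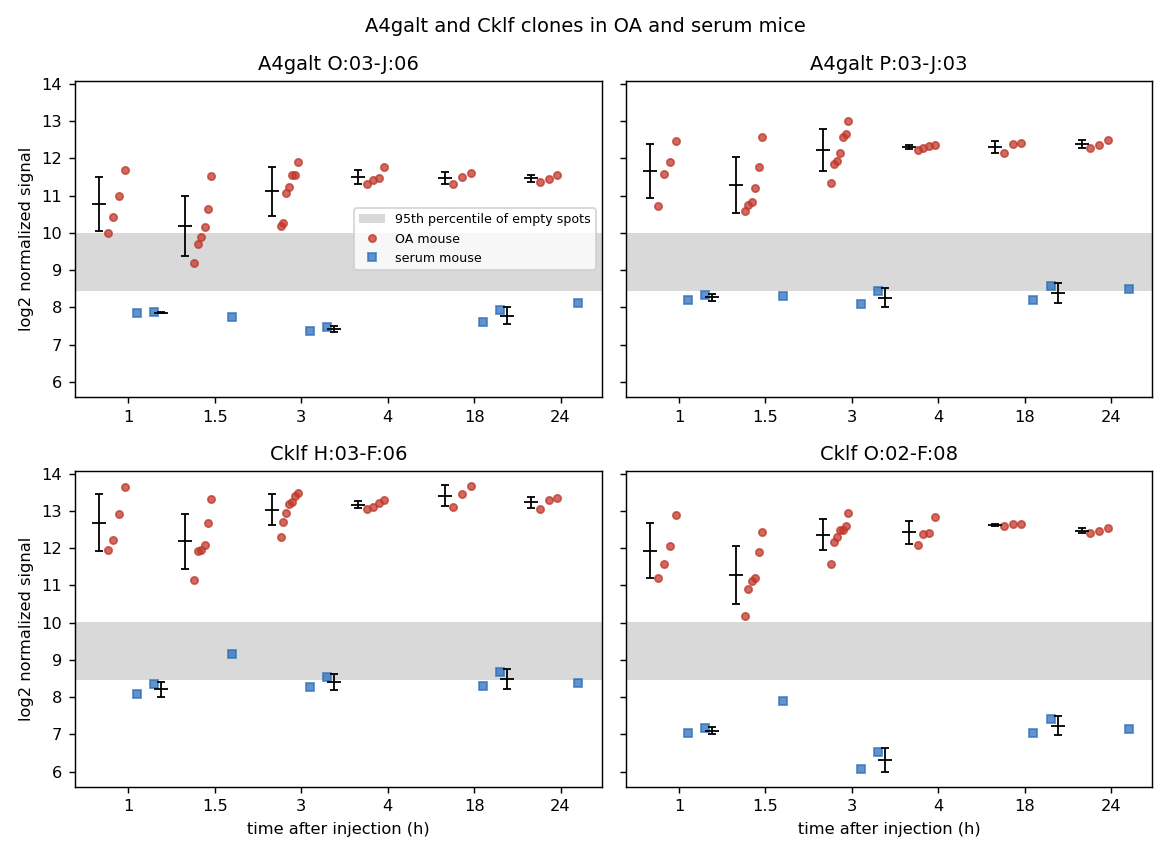
Log2 normalized signal (vertical axis) of each A4galt and Cklf clone by hours after injection (horizontal axis, not to scale), with 1 circle per OA mouse and 1 square per serum mouse. Black marks are group means with the SD where a group has 2 or more mice, and the grey band spans, over the 35 mice, the level under which 95% of the empty spots lie. On every clone all 27 OA mice are above all 8 serum mice, and the serum squares lie below or inside the grey band.

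The measured OA minus serum difference was large on all 4 clones at every time point, with the serum signal at background. Averaged over the 5 time points that have serum mice, the OA mean exceeded the serum mean by 5.00 for Cklf O:02-F:08, by 4.38 for Cklf H:03-F:06, by 3.63 for A4galt P:03-J:03 and by 3.22 for A4galt O:03-J:06. These differences held ranks 2, 8, 21 and 31 among the 7625 clones, whose median difference was 0.05. For Cklf O:02-F:08 the difference was 4.82 at 1 h, 3.38 at 1.5 h, 6.06 at 3 h, 5.39 at 18 h and 5.33 at 24 h. For Cklf H:03-F:06 it was 4.46, 3.02, 4.63, 4.92 and 4.85 at the same times. The A4galt differences were 3.40, 2.98, 3.96, 3.93 and 3.89 for P:03-J:03, and 2.91, 2.44, 3.69, 3.70 and 3.34 for O:03-J:06. The members were selected on these values, and their sizes are not compared between clones. All 4 clones thus had their smallest difference at 1.5 h, a time with 1 serum mouse.

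Any fold is a lower bound, because the serum lungs gave no signal that stood out from the empty spots. A spot was taken as above background where it exceeded the level under which 95% of the 512 empty spots on its own microarray lay. None of the 4 clones did so on any of the 9 serum microarrays. Both Cklf clones and A4galt P:03-J:03 did so on all 50 OA microarrays, and A4galt O:03-J:06 on 48 of them. With each serum microarray set to that background level, the mean OA signal was at least 11.1-fold higher for Cklf H:03-F:06, at least 6.51-fold for Cklf O:02-F:08, at least 5.93-fold for A4galt P:03-J:03 and at least 3.01-fold for A4galt O:03-J:06. The measured means behind these bounds were 12.87 ± 0.64 (SD, n = 27) in OA and 8.47 ± 0.33 (SD, n = 8) in serum for Cklf H:03-F:06, 12.11 ± 0.69 and 7.04 ± 0.55 for Cklf O:02-F:08, 11.97 ± 0.66 and 8.33 ± 0.16 for A4galt P:03-J:03, and 11.00 ± 0.74 and 7.75 ± 0.25 for A4galt O:03-J:06. Levels of different clones depend on the probe and are not set against each other.

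**Figure D2:**
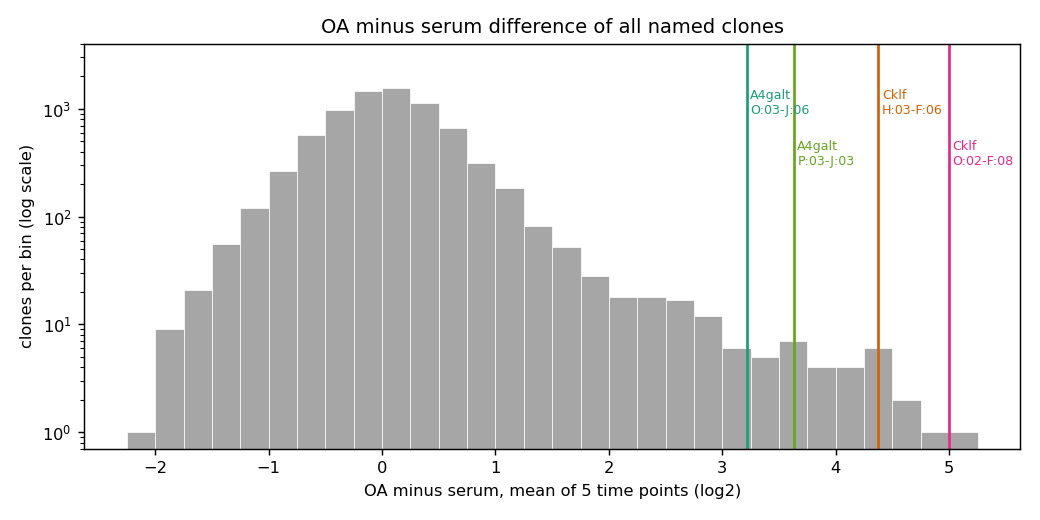
Number of clones (vertical axis, log scale) by OA minus serum difference, the mean of 5 time points on the log2 scale (horizontal axis), for all 7625 named clones. Coloured lines mark the A4galt clones at 3.22 and 3.63 and the Cklf clones at 4.38 and 5.00, in the right tail, where 36 clones exceed 3.

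Both clones of each gene lay far from serum. A difference over 3 was found on 36 clones, and among the 1388 genes with 2 or more clones A4galt and Cklf were the 2 with every clone over 3, which restates the values they were selected on. Among the 10 clones with the largest differences, the other genes with more than 1 clone had at least 1 clone near 0. The Actb clone M:01-J:05 (cytoplasmic beta-actin) differed by 5.08, from 3.30 in serum to 7.69 in OA, whereas the other 4 Actb clones differed by 0.08 to 0.72. The Fadd clone N:02-H:01 (the adaptor of death receptors) differed by 4.48, and the other Fadd clones by 0.05 to 0.20. Dlg7, a mitotic spindle gene now called Dlgap5, had 2 clones that differed by 4.35 and 4.32 and another that differed by 0.08. AY074887 at 4.66, Cherp at 4.55 and Prei3 at 4.39, also in that group of 10, had 1 clone each.

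Within the OA mice the question was whether A4galt and Cklf changed with time, which needs no serum mice. Cklf O:02-F:08 was at 11.19, 11.56, 12.05 and 12.90 in the 4 mice at 1 h. At 1.5 h its lowest, median and highest mouse were at 10.18, 11.15 and 12.43, and at 3 h at 11.58, 12.48 and 12.93. It was at 12.07, 12.38, 12.41 and 12.83 at 4 h, at 12.59, 12.64 and 12.64 at 18 h, and at 12.41, 12.47 and 12.54 at 24 h. The mice of the first 3 times were thus widely spread and those at 18 and 24 h lay close together near the top.

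The other Cklf clone gave the same picture. Cklf H:03-F:06 was at 11.95, 12.22, 12.90 and 13.64 at 1 h, at 11.13, 12.02 and 13.31 (lowest, median and highest) at 1.5 h, and at 12.30, 13.18 and 13.47 at 3 h. It was at 13.05, 13.11, 13.21 and 13.29 at 4 h, at 13.11, 13.45 and 13.67 at 18 h and at 13.06, 13.28 and 13.34 at 24 h. Its lowest 3 mice of all were found at 1 and 1.5 h.

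A4galt P:03-J:03 was at 10.72, 11.58, 11.90 and 12.46 at 1 h, at 10.59, 11.03 and 12.57 (lowest, median and highest) at 1.5 h and at 11.35, 12.14 and 13.02 at 3 h. At 4 h its 4 mice were within 12.23 to 12.37, at 18 h they were at 12.14, 12.38 and 12.42, and at 24 h at 12.28, 12.37 and 12.50. A4galt O:03-J:06 was at 10.01, 10.44, 10.98 and 11.68 at 1 h, at 9.20, 10.03 and 11.53 at 1.5 h, at 10.18, 11.22 and 11.92 at 3 h, at 11.32, 11.43, 11.49 and 11.78 at 4 h, at 11.31, 11.51 and 11.61 at 18 h and at 11.37, 11.46 and 11.56 at 24 h. Both A4galt clones were thus lowest and most spread at 1 and 1.5 h, with an overlap between every pair of neighbouring times.

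The difference between early and later times did not pass the test. With limma across all clones and an F test over the 6 times, the adjusted p was 0.0889 for Cklf O:02-F:08, 0.154 for Cklf H:03-F:06, 0.146 for A4galt O:03-J:06 and 0.181 for A4galt P:03-J:03. That test called 155 clones, or 2.03% of all, and none of the 4. The time means of a clone spanned 1.34, 1.23, 1.32 and 1.09 in the same order. From the early stage (1 and 1.5 h, 10 mice) to the intermediate stage (3 and 4 h, 11 mice) the limma estimate was 0.79 ± 0.23 (SE; adjusted p = 0.0611) for Cklf O:02-F:08 and 0.67 ± 0.22 (adjusted p = 0.106) for Cklf H:03-F:06. It was 0.78 ± 0.23 (adjusted p = 0.0745) for A4galt P:03-J:03 and 0.83 ± 0.25 (adjusted p = 0.0854) for A4galt O:03-J:06. Higher calls in that comparison made up 1.6% of clones.

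The late stage (18 and 24 h, 6 mice) was closer to the intermediate than to the early stage. Late minus early was 0.94 ± 0.26 (SE; limma adjusted p = 0.0612) for Cklf O:02-F:08, 0.89 ± 0.25 (adjusted p = 0.0685) for Cklf H:03-F:06, 0.99 ± 0.29 (adjusted p = 0.0794) for A4galt O:03-J:06 and 0.87 ± 0.27 (adjusted p = 0.088) for A4galt P:03-J:03, where 1.21% of clones were called higher. Late minus intermediate was 0.09 to 0.22 on the 4 clones, with limma adjusted p-values from 0.768 to 0.934. Between 1 and 1.5 h the 4 differences, 1.5 h minus 1 h, were -0.64 to -0.38, and between 18 and 24 h they were -0.18 to 0.07, with no limma adjusted p under 0.978 in either. Single early mice decided these calls. Without P4L3, the highest mouse at 1.5 h, all 4 clones passed the limma F test (adjusted p from 0.0111 to 0.0229) and were called in both comparisons with the early stage. Without P4L2, the highest mouse at 1 h, all 4 were called in both of those comparisons and 1 in the F test. All 4 also passed an F test over the 3 stages instead of the 6 times (limma adjusted p from 0.0201 to 0.0349).

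**Figure D3:**
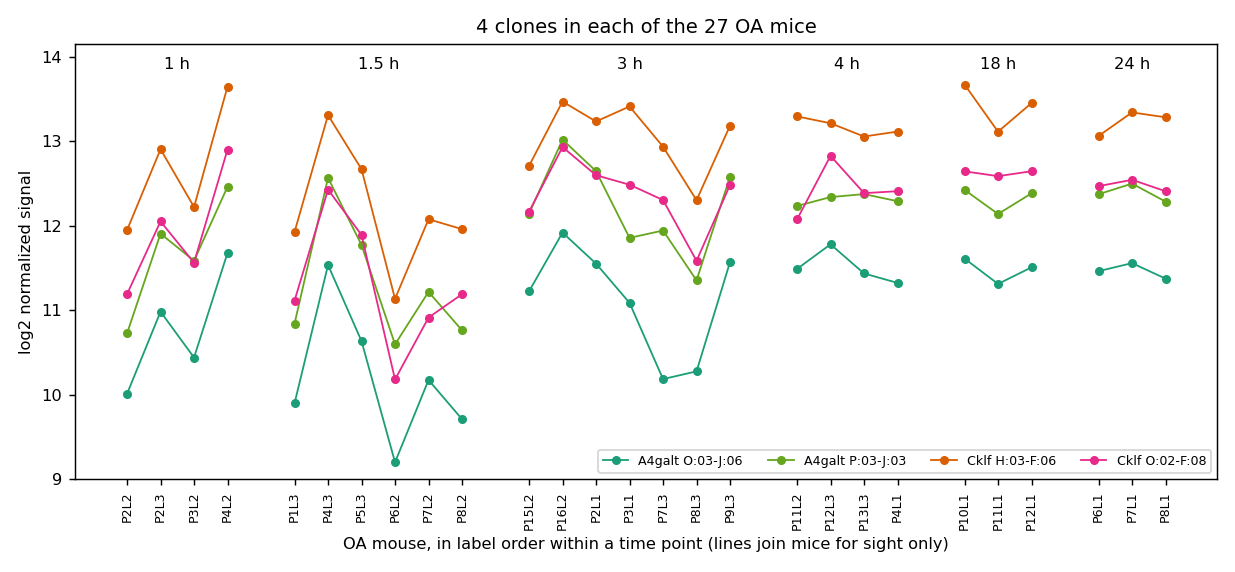
Log2 normalized signal (vertical axis) of the 4 clones in each of the 27 OA mice (horizontal axis), grouped by time after injection, with 1 coloured line per clone within a time point. The lines run nearly in parallel: P4L2 is highest at 1 h, P4L3 highest and P6L2 lowest at 1.5 h, and P16L2 highest at 3 h on all 4 clones, where pairs of clones correlate at 0.92 to 0.96.

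Several mice held the same place on all 4 clones. P4L2 was the highest mouse at 1 h, P4L3 the highest and P6L2 the lowest at 1.5 h, and P16L2 the highest at 3 h on each clone. Others did not: at 4 h P11L2 was the highest mouse on Cklf H:03-F:06 (13.29) but the lowest on Cklf O:02-F:08 (12.07) and on A4galt P:03-J:03 (12.23), and the lowest mouse at 3 h was P7L3 on A4galt O:03-J:06 and P8L3 on the remaining clones. Over the 27 OA mice, which share their time points and normalization, the 2 Cklf clones correlated at a Pearson r of 0.96 (Spearman rho 0.89) and the 2 A4galt clones at 0.95 (rho 0.93). Between the genes, r was 0.92 to 0.93 (rho 0.82 to 0.90). With each time point's mean taken out, r was 0.94 for Cklf, 0.94 for A4galt and 0.87 to 0.89 between the genes. Among the 1122 genes with exactly 2 clones, the median r was 0.15, 1 gene (Cklf itself) reached the r of the Cklf clones, and 2 (Cklf and A4galt) reached that of the A4galt clones. In the 216 of those genes with both clones above the empty spots, the median was 0.30. The agreement of clones was part of the rule that set the members, so nothing is read from their places among these genes.

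The agreement depended for A4galt on how the spot was measured. At a diameter calculated for each spot instead of a constant one, the r of the A4galt clones was 0.163 from the image and 0.091 from the fitted spot, and the lowest r between an A4galt and a Cklf clone was 0.132 and 0.031. A4galt P:03-J:03 then overlapped between OA and serum, with differences of 2.74 and 2.70. The Cklf clones kept an r of 0.90 and 0.80 under these settings.

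On the member clones, membranes of the same lung varied less than lungs of a time point did. The SD between mice is that of mouse means, most of them over 2 microarrays, and also holds variation between membranes. Over 23 OA mice with 2 microarrays, the SD between microarrays of a mouse was 0.30 for Cklf H:03-F:06 and 0.32 for Cklf O:02-F:08, against 0.52 and 0.54 between mice of a time point. It was 0.42 and 0.49 for A4galt P:03-J:03 and O:03-J:06, against 0.55 and 0.60. The median clone had 0.24 and 0.22, so the members varied more than the median clone at both levels. The largest gaps between membranes were 1.98 for A4galt O:03-J:06 in P7L3, the mouse with 1 microarray whose labels name both 3 h and 1.5 h, 1.75 for A4galt P:03-J:03 in P3L1, and 1.32 and 1.21 for the Cklf clones in P6L2.

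The labels also carry a lot, the number after the letter L, whose meaning is not stated in the sources used here. All mice at 18 and 24 h were of lot 1 and no early mouse was, so no lot held both. Late against early can be told apart from lot only by way of the intermediate mice, which were of lots 1, 2 and 3. Within lot 2, Cklf O:02-F:08 averaged 11.32 in 6 early and 12.39 in 3 intermediate mice. Within lot 3 it averaged 11.87 in 4 early and 12.32 in 5 intermediate mice, and within lot 1 12.50 in 3 intermediate and 12.55 in 6 late mice. The corresponding means of A4galt P:03-J:03 were 11.22 and 12.46 in lot 2, 11.77 and 12.12 in lot 3, and 12.26 and 12.35 in lot 1. The direction from early to intermediate was thus the same within both lots on both clones. With lot as a term in the limma fit, intermediate minus early was 0.54 to 0.75 on the 4 clones (adjusted p from 0.259 to 0.389). Late minus early in that fit was 0.84 for A4galt O:03-J:06 (adjusted p = 0.999).

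The clones whose level followed A4galt and Cklf most closely across the OA mice were not genes of their pathways. For each member clone the 5 clones of other genes with the highest r, among the 2687 clones above the empty spots, gave 12 clones of 12 genes. The clones closest to Cklf H:03-F:06 included Jub (Ajuba, a LIM protein of cell contacts, r = 0.97), Lef1 (a Wnt transcription factor, 0.97), Polr3gl (a subunit of RNA polymerase III, 0.96) and a clone labelled Q3U0Y7MOUSE (0.96). Cklf O:02-F:08 was closest to Slc24a6 (now Slc8b1, a mitochondrial sodium-calcium exchanger, 0.97), Polr3gl, Q3U0Y7MOUSE, Bpnt1 (a nucleotidase, 0.95) and Jub. The clones closest to A4galt O:03-J:06 included Slc24a6 (0.93), Aptx (aprataxin, of DNA repair, 0.93), Lef1 and Ddx21 (a nucleolar RNA helicase, 0.93), and A4galt P:03-J:03 was closest to Prei3 (now Mob4, 0.94), Jub, Polr3gl, Fadd and Zfpl1 (a zinc finger protein of the Golgi, 0.92). The median r of all clones above the empty spots with the members was -0.06. These correlations describe 27 mice measured on the same membranes and carry no test.

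The same 12 clones also lay above serum. Their OA minus serum difference exceeded 2 on 10 of 12 clones, for example 4.05 for Slc24a6 (11.61 in OA and 7.52 in serum) and 3.83 for Jub (12.13 and 8.26). The remaining 2 were Ddx21 at 1.24 and Zfpl1 at 0.71. The 95th percentile of all clones was 1.07. The level that had to be above the empty spots was a mean over OA and serum mice, so clones high only in OA could pass. Fadd N:02-H:01 did, at 9.99 in OA and 5.52 in serum, and nothing is read from the count of 10. Further clones of the 12 genes, 6 in all, belonged to Lef1, Bpnt1, Ddx21 and Fadd. The other Lef1 clone had an r of at most 0.02 with any member and a difference of -0.19, and the other Bpnt1 clone, at a mean level of 9.37, an r of at most 0.13 and a difference of -0.04. The other clones of Ddx21 and Fadd had r of at most 0.03 and differences from -0.09 to 0.20.

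**Figure D4:**
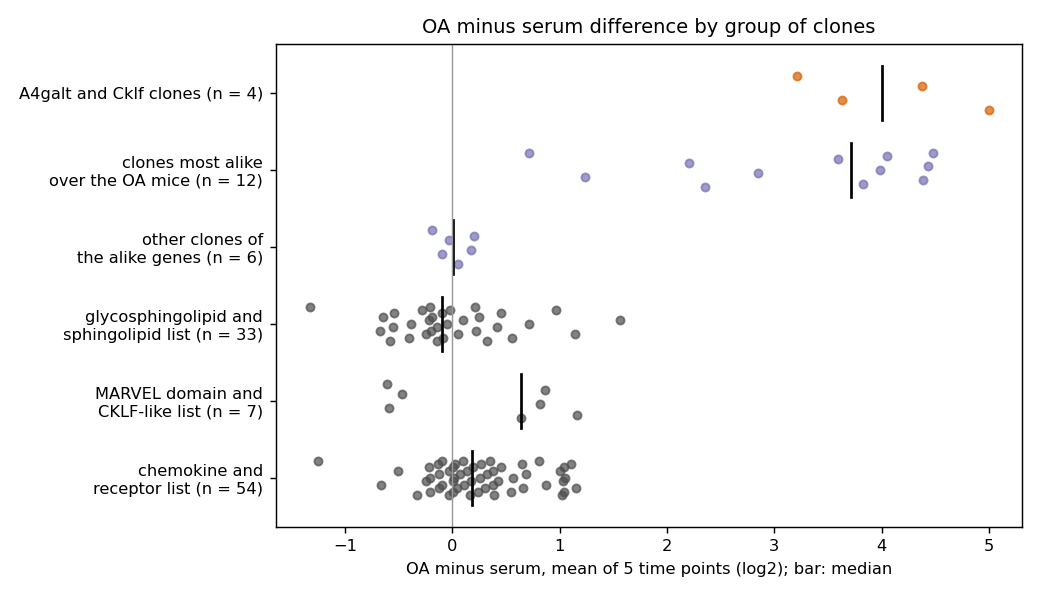
OA minus serum difference on the log2 scale (horizontal axis, mean of 5 time points), with 1 point per clone and a bar at each median, for the 4 A4galt and Cklf clones, the 12 clones most alike over the OA mice, the 6 other clones of those genes, and 3 gene lists. The members lie between 3.22 and 5.00, and no clone of the lists exceeds 1.56.

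Genes of glycosphingolipid metabolism went both ways. The glycosphingolipid and sphingolipid list, without A4galt, held 33 clones of 30 genes. Of these, 9 were higher and 10 lower in OA (limma, mean of 5 time points), with a median of -0.09, while over all clones 34.3% were higher and 27.3% lower, with a median of 0.05. With each microarray centred on its median, 2169 of all clones were higher and 2810 lower (median -0.06), in place of 2619 and 2081, and the list had 9 and 15. In the authors' table, where the median of all clones was 0.16, the list had 18 and 6. The higher clones were led by St3gal1 (a sialyltransferase, 1.56 ± 0.11 SE, limma adjusted p = 2.04e-12), B4galt1 (a galactosyltransferase of glycoproteins, 1.15 ± 0.28), B3gnt5 (which starts the lacto-series, 0.97 ± 0.08), B3galt4 (of the ganglio-series, 0.71 ± 0.14) and Cerk (ceramide kinase, 0.55 ± 0.08). The lower clones included Smpd1 (acid sphingomyelinase, -0.68 ± 0.09), Sgpp1 (-0.65 ± 0.11), Gltp (a glycolipid carrier, -0.58 ± 0.12) and a Neu1 clone (lysosomal sialidase, -0.55 ± 0.09). Of the 33 clones, 16 were above the empty spots, and B3gnt5, Cerk and this Neu1 clone were not. In the authors' table B3galt4 was at 0.33 (limma adjusted p = 0.0784). The brighter Neu1 clone, at -0.55 here, was at 0.45 there. The highest r of any clone of the list with a member was 0.42.

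The list of MARVEL domain and CKLF-like genes, without Cklf, held 7 clones of 5 genes. Of these, 4 were higher and 3 lower in OA (34.3% and 27.3% over all clones), with a median of 0.64. The lower count depended on the processing and was 0 at a calculated diameter, from the image or the fit, and 1 in the authors' table. Cmtm8 was higher by 0.64 ± 0.08 (SE; limma adjusted p = 2.05e-07), whereas the 2 clones of Cmtm6 went opposite ways, by 0.87 ± 0.09 on the one not above the empty spots (-0.09 in the authors' table) and by -0.59 ± 0.10 on the brighter one. The tetraspan vesicle genes Sypl (1.16 ± 0.10 and 0.81 ± 0.11 on 2 clones) and Syngr2 (-0.61 ± 0.13) and the tight junction gene Marveld2 (-0.47 ± 0.16) made up the rest. No clone of this list passed the F test over time.

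Among chemokines and their receptors, 22 of 54 clones were higher and 5 lower in OA, against 34.3% and 27.3% over all clones. Their median was 0.18, and 13 of the 54 were above the empty spots. The lower count was 8 with median centring and 13 in the authors' table. The clones of the other CCR4 ligands did not move together. Ccl17 was at 7.81 in OA and 7.29 in serum, a difference of 0.45 ± 0.13 (SE; limma adjusted p = 0.00288). The Ccl22 clone J:01-H:09, like Ccl17 not above the empty spots, differed by -0.33 ± 0.10 (adjusted p = 0.00648; 0.11 in the authors' table). The Ccl22 clone N:01-E:09, which was above them, was at 9.06 in OA and 9.01 in serum, a difference of 0.07 ± 0.08 (adjusted p = 0.415; -0.06 in the authors' table and with median centring). Large differences included 1.10 for Cxcl11, 1.05 for Ccr2, 1.04 for a Darc clone and 1.04 for Ccr6, none of them above the empty spots. A clone of Cxcl12, the ligand of Cxcr4, also not above them, differed by -1.25. The other Cxcl12 clone was above them and differed by 0.01 (limma adjusted p = 0.92). In the authors' table Ccr6 was at -0.35. The others lower in OA were a Ccl5 clone (-0.67, with 0.11 on the other Ccl5 clone), Ccr8 (-0.50), a Ccl22 clone and Ccl11 (-0.20). The highest r of any clone of the list with a member was 0.72, at Darc H:03-E:05, a spot adjacent to Cklf H:03-F:06. No clone of the list passed the F test over time.

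Most spots around the members were also higher in OA, by less than the members. Of 32 neighbouring spots 31 had a difference above 0, and 11 exceeded the 95th percentile of all clones, 1.07: 6 of the 8 around Cklf O:02-F:08, 3 around A4galt P:03-J:03, 2 around A4galt O:03-J:06 and 0 around Cklf H:03-F:06. The median difference of all clones was 0.05. The 8 neighbours of Cklf H:03-F:06 differed between OA and serum by 0.03 to 1.03 and those of Cklf O:02-F:08 by -0.10 to 1.69. Those of A4galt P:03-J:03 differed by 0.23 to 1.23 and those of A4galt O:03-J:06 by 0.16 to 2.50, the last at Zcchc11 O:03-I:07. The brightest neighbours were Acsl4, at 12.34 in OA beside A4galt P:03-J:03, and Cd274, at 11.18 beside Cklf H:03-F:06. The correction for light from neighbouring spots, which the files list per spot, was 0 at all 4 spots on every microarray. The part of neighbouring spots in these differences was not tested.

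Control spots differed unevenly between the treatments. The 4 poly-A spots differed by -0.64 to 0.19, and 3 of the 4 spots of Cot1, a repetitive DNA, were higher in OA, by 1.00, 1.55 and 1.85, while the remaining one differed by -0.76. The r of those 3 Cot1 spots with the members over the OA mice was 0.47 to 0.76, and that of the poly-A spots -0.39 to 0.23. The part of repetitive sequence in the members' signal was not tested. The median raw log2 intensity of a microarray was 6.75 to 9.36 in OA and 5.73 to 8.39 in serum. Across the 27 OA mice it correlated with the members at r from -0.34 to -0.27 and rho from -0.39 to -0.31 (permutation tests, 2-sided, adjusted p from 0.159 to 0.166 over 8 tests), and without the 2 mice farthest from the median r was -0.21 to -0.13.

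Markers of cell types went both ways, as did all clones, of which 34.3% were called higher and 27.3% lower in OA. Large differences included 2.62 ± 0.22 (SE; limma adjusted p = 5.39e-11) for Chi3l3, a macrophage marker. Its mean over all mice was not above the empty spots, with 9.34 in OA and 6.73 in serum. Tek, an endothelial receptor, differed by 1.75 ± 0.15 (limma adjusted p = 6.04e-11). The 2 clones of Eng, another endothelial gene, differed by -1.73 ± 0.21 (limma adjusted p = 3.34e-08) and -0.96 ± 0.17 (limma adjusted p = 1.35e-05). These 3 genes were chosen after their values were seen, and they kept their direction with median centring and in the authors' table. The r of Chi3l3 with the members was at most -0.50 and that of Tek at most -0.56. Those of Cd3g H:04-G:04 (T cell) and Cd72 K:01-E:09 (B cell), neither above the empty spots, were at most -0.79 and -0.62. The other Cd3g clone had at most -0.50 and the other Cd72 clone at most 0.15. The highest r of any clone of the lists for endothelial, neutrophil, T cell, B cell, macrophage, alveolar type II and red cell markers with a member was 0.54, and no marker of type I or club cells was matched here. Of 6 neutrophil marker clones, 2 were higher and 1 lower in OA, and their summed level was 55.6 to 63.9 in OA mice and 56.6 to 60.1 in serum mice. Of 8 macrophage marker clones, 4 were higher and 4 lower, and 1 was above the empty spots. Their summed level was 63.9 to 68.7 in OA and 61.2 to 63.8 in serum, ranges that did not overlap. The largest difference among these 8 clones was that of Chi3l3, 2.62. Summed levels did not overlap for the lists of MARVEL domain and CKLF-like genes and of chemokines either, so this was not particular to macrophage markers. Of 8 endothelial clones, 3 were higher and 3 lower (summed level 73.4 to 80.5 and 77.0 to 79.5). Of 15 B cell clones, 4 were higher and 6 lower (112 to 126 and 112 to 125), and of 13 T cell clones, none above the empty spots, 5 were higher and 1 lower (86.8 to 96.2 and 84.8 to 91.8). Of the 3 type II clones, which mark the surfactant cells of lung and were all above the empty spots, 1 was higher and 1 lower (35.0 to 36.5 and 33.2 to 36.1). Of 15 red cell clones, 4 were higher and 3 lower (197 to 200.2 and 194 to 199), but 1 and 13 with median centring and 13 and 0 in the authors' table. The scaling also moved the macrophage clones to 7 higher and 1 lower (authors' table), the endothelial clones to 1 and 5 (median centring) and 2 and 5 (authors' table), and the T cell clones to 5 and 4 (authors' table). The part of these cell types in the members' difference was not tested.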

How the data were processed

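Intensities of 60 nylon microarrays were read from the files as deposited. The authors hybridized 33P-labelled lung cDNA and quantified each spot with Bzscan2, at a constant or calculated diameter, from the image or a fitted spot. Whether the deposited intensities hold the local background and neighbour corrections is not stated. A score per spot for light from its neighbours was used as deposited. A second deposited table holds log2 values that the authors normalized, with 1 column per serum time point, and served as an alternative. The image signal at constant diameter was floored at 1, log2 transformed, quantile normalized over all 9984 spots and averaged per mouse in R 4.3.3 with limma 3.58.1. Of 51 OA microarrays, 1 had no resolvable mouse and was left out, and 1 with conflicting times was taken as 3 h. Serum mice were counted as the study's design shows them. Empty (512), unnamed (1647) and control spots were left out of the tests.

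Times within OA mice were compared by limma (F over 6 times and contrasts) and gene lists by the mean of 5 OA minus serum contrasts, with Benjamini-Hochberg adjustment over 7625 clones at 5%. Nothing says whether p-values cover more than the spread between these mice. The tests recovered known changes in simulated data with independent noise per clone. For the test over time this was required of log2 changes of 2, larger than the members' stage differences. It does not show whether changes of the members' size would be called. A clone counts as above the empty spots when its mean is over their 95th percentile. The precision is limited by the number of mice per group. Named were the members, the 5 clones most alike each, the 10 largest differences, short lists in full, up to 5 called clones per direction of longer lists, and adjacent spots. Members, lists and tests were chosen with earlier results of these data known. Alternatives were other signal columns, median centring, the authors' table, a floor of 16, bright clones only, serum subtraction, lot, single microarrays, the 2 doubtful microarrays and leaving out each mouse. The 3-stage F test was added after seeing the data. Promoter windows are RefSeq's (GRCm38.p6), and both members matched. Columns not used numbered 0. Some named clones that these rules gave are not reported here.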

Additional observations from a re-analysis of the deposited data

Results flagged for a closer look

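The microarray whose mouse could not be resolved from its labels, left out of all comparisons, carried the members' signal above every serum mouse. It gave 10.17 for A4galt O:03-J:06 (highest serum mouse 8.13), 11.19 for A4galt P:03-J:03 (8.57), 12.10 for Cklf H:03-F:06 (9.16) and 11.08 for Cklf O:02-F:08 (7.91). On all 4 clones this lay within the range of the 1.5 h mice, the time its label gives. In the 4 OA groups of 4 or more mice (1 to 4 h) no mouse stood apart on a member clone in 16 tests, 1 per clone and group. The groups of 3 mice at 18 and 24 h and the serum groups were too small to be tested.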

How the results depend on the processing

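The OA mean of each member stayed above the serum mean under every alternative run, although A4galt P:03-J:03 overlapped at a calculated diameter, with differences of 3.10 to 3.34 (A4galt O:03-J:06), 2.70 to 3.63 (A4galt P:03-J:03), 3.85 to 4.38 (Cklf H:03-F:06) and 4.73 to 5.00 (Cklf O:02-F:08) under other settings. Leaving out 1 mouse gave 3.16 to 3.41, 3.57 to 3.79, 4.26 to 4.72 and 4.91 to 5.40 in that order, the highest without the only serum mouse at 1.5 h. Other values depended on the processing, and the cause was not tested except where stated. At a calculated diameter A4galt P:03-J:03 differed by 2.74 (image) and 2.70 (fit), its late minus early difference turned to -0.44 and -0.58, and r was 0.163 and 0.091 between the A4galt clones, 0.90 and 0.80 between the Cklf clones and at lowest 0.132 and 0.031 across the genes. With the fitted signal at constant diameter r was 0.90 for A4galt and at lowest 0.85 across the genes, and without the microarray of conflicting time 0.97 for A4galt.

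The number of the 4 clones called by the F test over time was 0, and 4 with serum means subtracted, 4 with every microarray as a row and the mouse as a random block (1 correlation of 0.17 for all clones), 4 over 3 stages and 1 with the unresolved microarray as a mouse. Subtraction treats the serum mean as free of error. Intermediate minus early called 0, but 1 with median centring, 1 among bright clones only, 4 with subtraction, 4 with single microarrays, 1 with the unresolved microarray and 1 without the conflicting one. Late minus early called 0, but 2 among bright clones, 3 with subtraction, 4 with single microarrays and 1 with the unresolved microarray. Subtraction also called 1 clone in late minus intermediate and 2 in 1.5 h minus 1 h. Leaving out each mouse gave 0 to 4 calls in the F test, in intermediate minus early and in late minus early. For intermediate minus early these were 4 without P4L2 or P4L3, 1 without P5L3 and 2 without P8L3.

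Over all clones the F test called 155, against 62 (fit, constant diameter), 18 and 12 (image and fit, calculated diameter), 97 (bright clones, fewer tested), 4264 (subtraction), 70 (lot as a block), 441 (single microarrays), 484 (3 stages) and 90 to 301 without 1 mouse (301 without P4L3, 103 without P6L1 and 90 without P7L1). Clones higher and lower in OA were 2619 and 2081, against 974 and 566 (image, calculated), 1223 and 636 (fit, calculated) and 929 and 639 (bright clones). The glycosphingolipid list had 4 higher and 4 lower (image, calculated), 4 lower (fit, calculated), 5 lower (bright clones) and 18 higher and 6 lower (authors' table). The MARVEL list had 2 higher (bright clones) and 0, 0 and 1 lower (image and fit, calculated, and authors' table). The chemokine list had 11 and 12 higher (image and fit, calculated), 2 higher and 1 lower (bright clones), and 3, 3, 8 and 13 lower (fit at constant, image at calculated diameter, median centring and authors' table), with 3 to 6 without 1 mouse (3 without the 24 h serum mouse). The A4galt r was 0.94 to 0.98 without 1 mouse (0.98 without P7L3). No paired analysis was possible because replicate numbers only name mice in order. Of the values under other settings, 282 kept their call or stayed within the spread, 35 passed the test that the reported setting did not, 59 moved and 2 reversed.

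Serum levels at background, 1 or 2 serum mice per time and late mice of 1 lot limit these values.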
